A study of Homo sapiens with 12 samples.

Results

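Overexpression of DOT1L in normal fibroblasts was compared with an empty-vector control at the level of messenger RNA, over all genes. The comparison holds 6 of the 12 RNA sequencing libraries of the series, 3 of DOT1L OE and 3 of control, chosen by their labels. In them 13660 of 48162 gene IDs passed a filter on low counts and were tested. The cells were IMR90, a line of normal diploid human lung fibroblasts, grown in 2% oxygen. DOT1L OE cells had received a retrovirus with human wild-type DOT1L (MSCB-hDot1lwt). They were selected with blasticidin at 1 µg/mL for 4 days. Control cells had received the empty retrovirus pBABE-Control and, per the labels, were selected with puromycin at 3 µg/mL for 4 days. The study's methods give another dose and time for puromycin after pBABE infection. They give the labelled ones for cells infected with pLKO.1 lentiviruses for hairpin RNAs, with shGFP as control. Vector and antibiotic thus changed together with DOT1L, and no group with the empty MSCB vector was analysed here, so that the 3 cannot be told apart in any difference below. Whether control cells also carried such a hairpin was not determined here, and it would be a further difference. The cells were selected with the drug after infection, no cloning is described, and no oncogenic HRAS was introduced in either group. The other 6 libraries came from IMR90 cells with HRAS G12V (RAS) and from RAS cells with a hairpin RNA against DOT1L. Only the 3 RAS libraries were used, for levels set beside those of DOT1L OE. RAS cells had received HRAS G12V in a pBABE retrovirus and, per the labels, were selected with puromycin at 3 µg/mL for 4 days. Whether they also carried a hairpin was likewise not determined.

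DOT1L methylates lysine 79 of histone H3 within the body of transcribed genes, and this mark goes along with active transcription. It is best known from leukaemias with rearranged MLL, in which DOT1L is brought to HOXA genes. In senescent fibroblasts it has been studied for the senescence-associated secretory phenotype (SASP), the cytokines, chemokines, growth factors and proteases released by arrested cells. IL1A, an alarmin at the cell surface, stands upstream of much of the SASP, since signalling through its receptor activates NF-κB and C/EBPβ, which drive genes such as IL6 and CXCL8. The question of the comparison was whether more DOT1L alone, without an oncogene, goes along with expression of such genes.

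Library totals ran from 16990374 to 19503457 counts, with mitochondrial genes at 2.31% to 2.54% of counts in control and 2.26% to 2.43% in DOT1L OE. Levels are given below as CPM, a library's counts scaled to a fixed total of 1e+06, in the order of replicates 1, 2 and 3, after scaling by TMM factors. They are not divided by gene length, so they compare libraries and not genes. Differences are log2 changes ± SE from edgeR's quasi-likelihood test over n = 3 and 3 libraries, with Benjamini-Hochberg adjusted p over the genes tested. Legends of the study describe RNA sequencing libraries as technical replicates whereas its methods speak of biological ones. The p values thus reflect how much these libraries vary, and that variation may be technical. A bulk sample cannot tell fewer cells that express a gene from less RNA per cell. The first principal component held 75.4% of the variance and separated the groups, and the second, with 8.4%, set control replicate 2 apart from the other 5 libraries (-33.89 against -3.04 to 18.04).

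DOT1L itself (GRCh38 chr19:2163933-2232578, plus strand) stood at 35.8, 31.2 and 34.9 CPM in control and 223, 221 and 206 CPM in DOT1L OE, 6.38-fold higher (log2 change 2.67 ± 0.06, adjusted p = 6.68e-26). Reads from the transgene and from the gene on chromosome 19 both count toward this value. HRAS was at 88.6, 92.5 and 94.9 CPM in control and 78.3, 87.5 and 89.8 CPM in DOT1L OE, with groups that overlapped (log2 change -0.11 ± 0.07, adjusted p = 0.154), although the change passed the test once gene GC content was taken into account (log2 change -0.23, adjusted p = 0.00212). All 12 fibroblast markers were tested and their summed level was 20930 to 21190 CPM in control and 16300 to 16960 CPM in DOT1L OE. COL1A2, COL3A1, THY1 and other markers, 8 of 12, were lower and PDGFRA, PDGFRB and PRRX1 were higher. Markers of other cell types were a mixture of absent and expressed genes. SFTPC, SCGB1A1, CDH5, CD68, MYOD1 and MYOG had 0 counts in all 6 libraries, CDH1 and ELF3 had at most 4 counts in a library and PTPRC at most 5. The epithelial keratins KRT19 and KRT18 were expressed, KRT19 at 124, 125 and 122 CPM in control and 39, 35 and 36.7 CPM in DOT1L OE (log2 change -1.74 ± 0.07, adjusted p = 1.94e-20) and KRT18 at 116, 128 and 111 CPM in control and 71.5, 67.9 and 72.4 CPM in DOT1L OE, and KRT8 was at 46.6, 41.4 and 41.8 CPM in control. These 3 keratins were the epithelial markers called lower, of 8 tested, and 2 were called higher (median log2 change 0.60). KRT7 rose from 3.09, 3.12 and 2.37 CPM to 19, 14.3 and 15.4 CPM (5.67-fold), and CLDN4 rose 2.47-fold. CD4, a leukocyte marker, was at 48.2, 48.9 and 48.2 CPM in control and 23.3, 28.2 and 25 CPM in DOT1L OE (1.9-fold lower). TEK, of endothelial cells, and MCAM, of pericytes, were at 67.5, 73.3 and 74.4 CPM and 298, 314 and 302 CPM in control. The summed level of 14 epithelial markers was 282.3 to 303.7 CPM in control and 160.7 to 170 CPM in DOT1L OE, that of 11 leukocyte markers 49.72 to 50.77 CPM and 24.76 to 30.01 CPM, and that of 8 muscle and pericyte markers 493.4 to 529.9 CPM and 752.2 to 759.5 CPM. Their part in the results was not tested.

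Over all genes tested, 8180 of 13660 changed (59.9%), 4089 higher and 4091 lower, 29.9% in each direction. A change of over 1.5-fold, tested as such with glmTreat, was found for 2838 genes (20.8%), 1530 higher (11.2%) and 1308 lower (9.58%). In 64.1% of genes the 3 libraries of one group did not overlap with those of the other. The median log2 change was 0.006, and 90% of genes, between the 5th and 95th percentile, lay from -1.26 to 1.52. These shares are the background against which each gene class below is to be read. The filter asks for about 10 counts in 3 libraries, so that a gene can pass through the group in which it is high, and the filter then favours that direction. This held for 585 genes through DOT1L OE alone and for 417 through control alone. In the lists below they were at most 4 members unless stated.

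**Figure D1:**
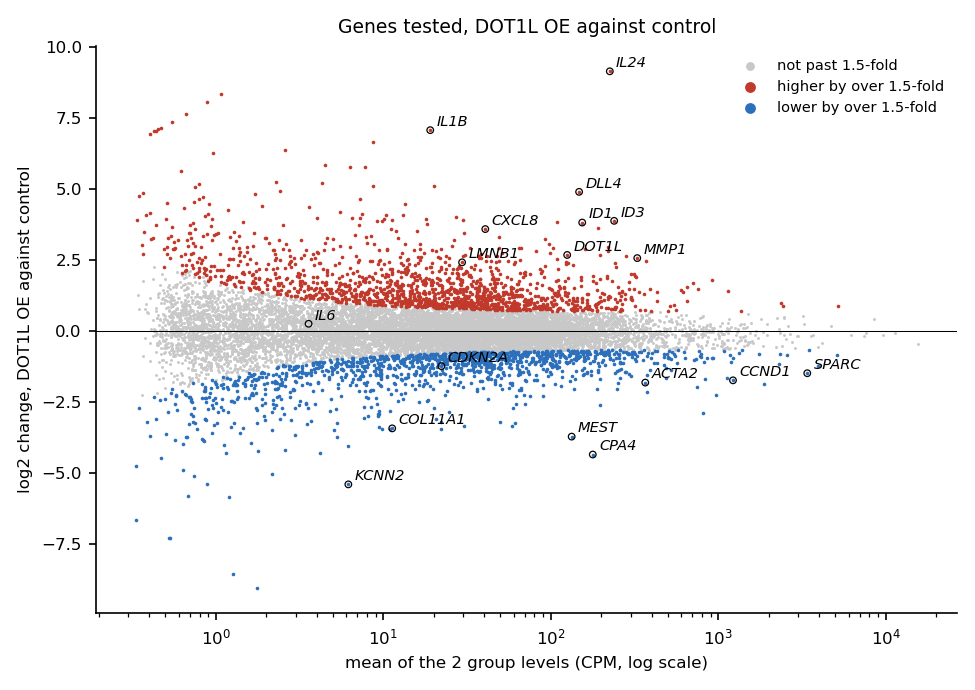
Log2 change in DOT1L OE against control (y axis) over the mean of both group levels (x axis, CPM, log scale) for the 13660 genes tested, with the 1530 genes higher and the 1308 lower by over 1.5-fold in colour. IL24 stood furthest above 0 among genes of more than 100 CPM and CPA4 furthest below, while IL6 lay near 0.

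Cytokines and chemokines of the SASP were among the genes that rose most, but not all of them did. Of 32 genes listed, 18 were tested. Of these 12 were higher, 11 of them by over 1.5-fold, 1 was lower and 5 were not called. Of the 12, CSF3, CXCL1, CXCL3, IL1A and IL1B passed the filter through DOT1L OE alone, so that the filter favoured their direction, while 13 members passed otherwise, with 7 higher, 1 lower and 5 not called. Of the genes not tested, 4 had no count in any of the 6 libraries. IL24 (chr1:206897443-206904139, plus strand), a cytokine of the IL-10 family, had the smallest p of all genes higher in DOT1L OE, at 0.772, 0.577 and 1.02 CPM in control and 435, 455 and 459 CPM in DOT1L OE, or 561-fold higher (log2 change 9.13 ± 0.10, adjusted p = 1.99e-35). IL1B (chr2:112829751-112836816, minus strand), the secreted partner of IL1A, was at 0.386, 0 and 0.431 CPM in control and 35.7, 35.3 and 42.7 CPM in DOT1L OE (133-fold higher, log2 change 7.06 ± 0.25, adjusted p = 1.26e-21). These levels rest on 7, 0 and 8 counts in control and 626, 706 and 846 in DOT1L OE, so the groups were far apart while the control level was known only roughly.

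CXCL8, the neutrophil chemokine also called IL-8, was at 5.13, 6.69 and 7 CPM in control and 76, 72.7 and 76.6 CPM in DOT1L OE (12-fold higher, log2 change 3.58 ± 0.11, adjusted p = 1.95e-23). CXCL1 and CXCL5, which act on the same receptor and were chosen after their values were seen, were at 0.386, 0.173 and 0.862 CPM in control and 7.3, 6.85 and 8.63 CPM in DOT1L OE and at 1.32, 0.808 and 0.754 CPM in control and 9.18, 9.8 and 8.32 CPM in DOT1L OE. In each of these 3 genes the groups did not overlap. IL11, a cytokine of the IL-6 family that fibroblasts make, was already at 53.3, 54.8 and 51.7 CPM in control and rose to 335, 348 and 332 CPM (6.35-fold, log2 change 2.67 ± 0.05, adjusted p = 6.96e-28). CSF3, which drives granulocyte formation, had 0 counts in all control libraries and 0.97, 0.8 and 0.959 CPM in DOT1L OE, at least 16.3-fold higher if the control group is set to 3 counts in all, the floor used here.

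IL1A, by contrast, stayed at low levels in both groups. It was at 0.386, 0.231 and 0.377 CPM in control and 2.05, 0.7 and 1.36 CPM in DOT1L OE, or 7, 4 and 7 counts in control and 36, 14 and 27 in DOT1L OE. Its rise of 4.04-fold (log2 change 2.02 ± 0.60, adjusted p = 0.00449) was lost without DOT1L OE replicate 1 (log2 change 1.62, adjusted p = 0.0753). IL6, a hallmark SASP cytokine, was at 2.92, 3.63 and 3.29 CPM in control and 3.14, 3.45 and 5.1 CPM in DOT1L OE. The groups overlapped and the change did not pass the test (log2 change 0.25 ± 0.27, adjusted p = 0.45). LIF, another member of the IL-6 family, named here for the RAS comparison after its values were seen, was likewise not called, at 10.4, 15.7 and 16.6 CPM in control and 14.2, 11.9 and 14.7 CPM in DOT1L OE. CCL2, a monocyte chemokine, was the single member that fell, from 7, 9 and 5.76 CPM to 2.79, 1.9 and 2.07 CPM (3.22-fold lower, log2 change -1.69 ± 0.25, adjusted p = 7.6e-07).

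Levels in RAS libraries, in which oncogenic HRAS drives senescence, were set beside these after scaling over all 12 libraries, so that the CPM of DOT1L OE differ slightly from those above. The comparison shares its DOT1L OE libraries with the main one. RAS cells also differed from DOT1L OE cells in vector and antibiotic, which cannot be told apart from HRAS and DOT1L here. Of 23 SASP genes tested between DOT1L OE and RAS, 15 were lower in DOT1L OE, 4 were higher and 4 were not called. Over all 13648 genes tested, 32.3% were lower and 33.2% were higher. CCL20, CCL26, CSF2, CXCL2 and CXCL6 passed the filter through RAS alone and CXCL12 and IL15 through DOT1L OE alone, so that the filter favoured their direction. Of the other 16, 11 were lower, 2 were higher (IL24 and CSF1) and 3 were not called. IL1A was at 286, 281 and 252 CPM in RAS and at 1.92, 0.654 and 1.26 CPM in DOT1L OE, a 216-fold difference (log2 difference -7.75 ± 0.14, adjusted p = 1.63e-19, edgeR). IL1B was 83.8-fold, CXCL8 38.5-fold and IL6 53.6-fold lower in DOT1L OE than in RAS. CSF3, at 735 to 777 CPM in RAS and below 1 CPM in DOT1L OE, was 885-fold lower.

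IL24 went the other way. It was at 33.3, 40.9 and 38.1 CPM in RAS and at 407, 425 and 426 CPM in DOT1L OE, 11.3-fold higher in the latter (log2 difference 3.49 ± 0.07, adjusted p = 4.63e-19). CXCL12, CSF1 and IL15, the other 3 called higher, were chosen after their values were seen and differed by 51.6-fold, 2.07-fold and 2.25-fold. IL11 differed less than most, with 485 to 525 CPM in RAS and 308 to 325 CPM in DOT1L OE, or 1.58-fold lower. DOT1L was higher in DOT1L OE (192 to 208 CPM) than in RAS (82.3 to 88.5 CPM), by 2.4-fold. LMNB1, CCNA2 and CDKN2A, which mark proliferation or arrest, also differed. Relative to RAS, LMNB1 was 12.4-fold and CCNA2 21.5-fold higher in DOT1L OE. CDKN2A, at 53.3 to 63.1 CPM in RAS, was 4.69-fold lower.

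**Figure D2:**
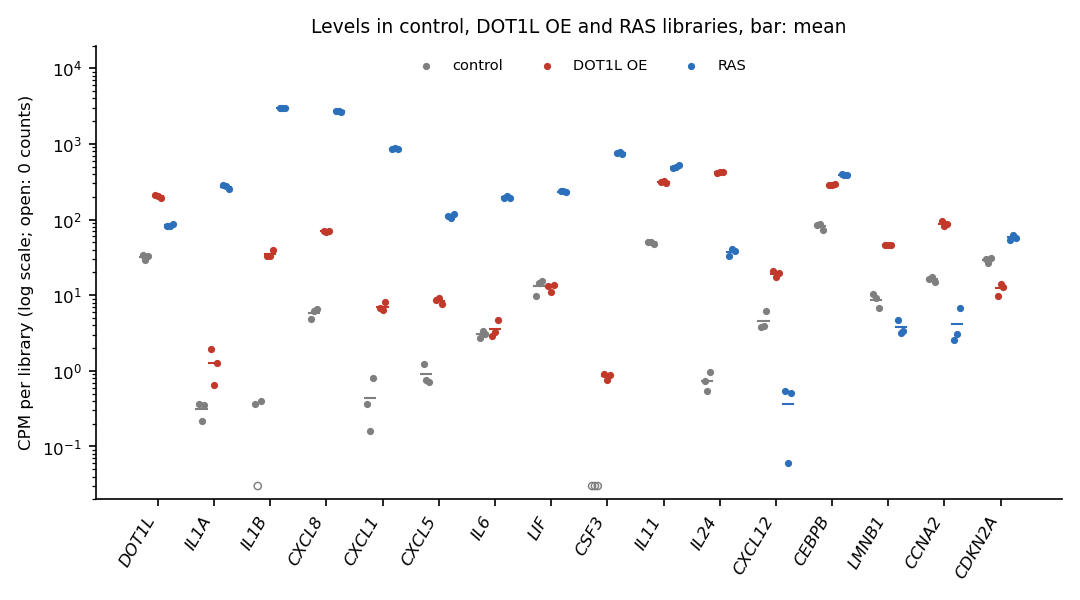
CPM (log y axis) of 16 genes in each of the 3 control, 3 DOT1L OE and 3 RAS libraries, scaled together, with a bar at the mean where no library was at 0 and open circles for 0 counts. Most SASP genes in DOT1L OE lay between control and RAS, IL6 and LIF lay at the control level, and IL24, CXCL12, LMNB1 and CCNA2 lay above RAS.

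Receptors and relays of IL-1 signalling moved in both directions. Among 13 tested, 8 were higher and 3 lower (median log2 change 0.33). IL1RL1 and IL1RN passed the filter through DOT1L OE alone. IL1R1, the receptor that IL1A and IL1B share, was at 50.3, 47.8 and 46.3 CPM in control and 107, 104 and 100 CPM in DOT1L OE (2.16-fold higher, log2 change 1.11 ± 0.07, adjusted p = 2.16e-15). IL1RAP, the chain it needs for signalling, fell instead from 27.5, 30.3 and 28.1 CPM to 10.3, 9.9 and 9.18 CPM (2.93-fold lower, log2 change -1.55 ± 0.12, adjusted p = 7.57e-13). CASP1, the protease that matures IL1B, was 3.15-fold higher at 25.1, 21 and 21.3 CPM in control and 72.9, 65.8 and 73.9 CPM in DOT1L OE. Of 15 C/EBP and AP-1 factors, 6 were higher and 3 lower. CEBPB, the C/EBP factor of the SASP, was at 90.4, 93.3 and 79.1 CPM in control and 303, 307 and 314 CPM in DOT1L OE (3.51-fold higher, log2 change 1.81 ± 0.06, adjusted p = 6.05e-23), while JUN and FOSL2 fell slightly (log2 changes -0.26 and -0.32).

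Components and targets of NF-κB moved in both directions. Their list did not hold CXCL8 or IL1B, which were counted with the SASP. Of 26 tested, 11 were higher (42.3%) and 8 lower (30.8%), with a median log2 change of 0.17. RELA, the p65 subunit, was at 212, 228 and 238 CPM in control and 219, 237 and 227 CPM in DOT1L OE (log2 change 0.01 ± 0.05, adjusted p = 0.869). PTGS2, the inducible cyclooxygenase, rose from 4.52, 5.02 and 4.79 CPM to 35.3, 34.6 and 33 CPM (7.17-fold, log2 change 2.84 ± 0.13, adjusted p = 9.98e-19). C3, the central complement protein, and ICAM1, a leukocyte adhesion molecule, fell instead, C3 from 15.2, 14.7 and 14.1 CPM to 2.68, 2.35 and 1.87 CPM (6.38-fold) and ICAM1 from 66.7, 69.5 and 73.1 CPM to 31.9, 30.1 and 31.8 CPM (2.23-fold). Interferon-stimulated genes were as mixed, with 11 of 32 higher and 9 lower. In the cytosolic DNA sensing pathway STING1 was at 30.1, 27.8 and 30.9 CPM in control and 83.4, 85.1 and 91.4 CPM in DOT1L OE (2.93-fold higher, log2 change 1.55 ± 0.08, adjusted p = 1.25e-17). CGAS, its upstream sensor, was 2.33-fold higher, whereas TBK1, the kinase below STING1, was 1.49-fold lower (log2 change -0.57 ± 0.12, adjusted p = 8.4e-05).

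Prostaglandin synthesis genes were mostly higher. Of 14 genes tested, 10 were higher and 1 was lower (median log2 change 0.92). PTGDS, PTGES and PTGIS passed the filter through DOT1L OE alone. PTGS1, the constitutive cyclooxygenase, was at 74, 80.8 and 77.9 CPM in control and 484, 473 and 488 CPM in DOT1L OE (6.22-fold higher, log2 change 2.64 ± 0.05, adjusted p = 1.39e-28), and PTGS2 rose too. TBXAS1, which makes thromboxane, was at 7.11, 6 and 4.26 CPM in control and 43.5, 45.7 and 47.7 CPM in DOT1L OE (7.89-fold higher). PTGER4, a receptor for prostaglandin E2, was the exception and was 1.98-fold lower (log2 change -0.98 ± 0.16, adjusted p = 2.17e-06).

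The class with the most uniform direction was mitosis. All 32 genes listed were tested and all 32 were higher, 31 by over 1.5-fold, with a median log2 change of 2.20. CDC20, an activator of the anaphase-promoting complex, was at 22.1, 21.8 and 19.6 CPM in control and 173, 179 and 173 CPM in DOT1L OE (8.27-fold higher, log2 change 3.05 ± 0.07, adjusted p = 1.33e-26). TOP2A, the topoisomerase that untangles chromosomes, was at 41.4, 37.9 and 37.5 CPM in control and 219, 205 and 196 CPM in DOT1L OE and TPX2, a spindle assembly factor, at 42.7, 48.9 and 43.3 CPM in control and 233, 222 and 223 CPM in DOT1L OE. CCNA2, cyclin A2, was at 17.5, 18.5 and 15.8 CPM in control and 102, 87.2 and 93.5 CPM in DOT1L OE (5.46-fold higher, log2 change 2.45 ± 0.09, adjusted p = 1.35e-21). In none of these 4 genes did a control library reach the lowest DOT1L OE library.

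S phase genes followed the same direction, with 29 of 31 higher, 26 by over 1.5-fold, and 1 lower (median log2 change 1.35). RRM2 and RRM1, the subunits of ribonucleotide reductase, were at 87.5, 83.6 and 84.7 CPM in control and 404, 403 and 413 CPM in DOT1L OE and at 58.3, 58.8 and 61.2 CPM in control and 163, 170 and 171 CPM in DOT1L OE (4.76-fold and 2.83-fold higher). MCM7, a part of the replicative helicase, was 3.78-fold higher (log2 change 1.92 ± 0.05, adjusted p = 3.42e-24). CCNE1, cyclin E1, was the member called lower (log2 change -0.39 ± 0.16, adjusted p = 0.0347), a call that was lost under 7 of the alternatives, among them leaving out any 1 DOT1L OE library or control replicate 2 (log2 changes -0.24 to -0.41). LMNB1, the nuclear lamin that senescent cells lose, rose from 11.1, 9.69 and 7.27 CPM to 49.9, 50 and 49.5 CPM (5.33-fold, log2 change 2.41 ± 0.12, adjusted p = 7.55e-18).

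The promoters of these cell cycle genes are shown because the genes moved together. The promoters were also searched for short motifs. Of these, 3 motifs of the cell cycle were each more frequent in mitosis or S phase promoters than in those of genes tested. Here and below, the motif shares of a list count its tested members whatever their call. They thus describe the list and are not a result of this comparison. Sequences are the 250 bases before the first RefSeq start of a gene (build GRCh38.p14), 5′ to 3′ on the strand of the gene, and motifs were read on both strands. The CCAAT box (CCAAT or ATTGG, bound by NF-Y) was found in 80.8% of 26 mitosis promoters and in 34.6% of 10384 promoters of genes tested, or 33% of all 27305 promoters. The CHR (TTTGAA or TTCAAA, bound by the DREAM complex) was found in 50% of mitosis promoters, 8.36% of those of genes tested and 13.6% of all. The E2F site (TTTCCCGC or GCGGGAAA) was found in 26.9% of 26 S phase promoters, 2.22% of those of genes tested and 1.42% of all. The CCAAT box was also in 61.5% of S phase promoters, but the CHR was in 3.85% of them. Of mitosis promoters 3.85% held the E2F site. Capitals below mark the CCAAT box and the CHR in the 3 mitosis genes and the E2F site in the 2 S phase genes, taken as the members of each list with 1 listed start, these motifs and the smallest p.
CDC20, chr1:43358731-43358980, plus strand: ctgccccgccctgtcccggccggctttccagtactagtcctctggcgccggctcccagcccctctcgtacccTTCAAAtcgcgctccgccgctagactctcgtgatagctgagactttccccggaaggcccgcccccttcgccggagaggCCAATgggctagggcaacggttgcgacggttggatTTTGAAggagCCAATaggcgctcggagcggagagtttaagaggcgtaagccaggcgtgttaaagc
TOP2A, chr17:40417897-40418146, minus strand: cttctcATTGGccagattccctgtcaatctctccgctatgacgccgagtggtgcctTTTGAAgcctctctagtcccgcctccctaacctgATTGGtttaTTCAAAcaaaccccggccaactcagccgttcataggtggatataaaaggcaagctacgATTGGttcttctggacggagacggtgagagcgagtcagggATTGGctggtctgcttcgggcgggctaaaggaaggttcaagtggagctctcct
PLK1, chr16:23678639-23678888, plus strand: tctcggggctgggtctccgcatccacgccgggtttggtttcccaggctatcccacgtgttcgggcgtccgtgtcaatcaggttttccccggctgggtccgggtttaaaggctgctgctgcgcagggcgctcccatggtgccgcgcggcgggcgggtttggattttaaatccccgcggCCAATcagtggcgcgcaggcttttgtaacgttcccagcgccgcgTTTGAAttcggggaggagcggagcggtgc
CDT1, chr16:88803539-88803788, plus strand: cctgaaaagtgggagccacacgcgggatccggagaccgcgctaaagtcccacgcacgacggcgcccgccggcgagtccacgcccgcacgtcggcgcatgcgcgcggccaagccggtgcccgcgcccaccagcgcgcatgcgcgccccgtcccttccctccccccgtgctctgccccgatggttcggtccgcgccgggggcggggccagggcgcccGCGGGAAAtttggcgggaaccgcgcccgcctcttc
MCM3, chr6:52284743-52284992, minus strand: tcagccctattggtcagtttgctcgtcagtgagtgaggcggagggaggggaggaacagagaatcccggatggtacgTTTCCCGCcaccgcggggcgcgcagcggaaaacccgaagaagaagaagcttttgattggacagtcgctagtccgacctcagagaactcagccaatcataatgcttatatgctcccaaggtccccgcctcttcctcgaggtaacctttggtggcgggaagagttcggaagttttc

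CDC20 held a CHR at -65, 10 bases before a CCAAT box at -55, counted from the start, and PLK1 held a CHR at -29 and a CCAAT box at -73. Over all genes higher by over 1.5-fold, 38.7% of 1187 promoters held a CCAAT box and 13.2% held a CHR, against 36.5% and 8.69% of 1001 promoters of genes lower by over 1.5-fold. A match says that these letters occur in the window and nothing of what binds there.

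Inhibitors of the cell cycle did not share a direction: of 15 inhibitors and senescence markers, 6 were higher and 8 lower. CDKN2A, which encodes p16, was at 32.2, 28.5 and 33.1 CPM in control and 10.4, 15.1 and 14 CPM in DOT1L OE (2.37-fold lower, log2 change -1.24 ± 0.12, adjusted p = 2.86e-10). CDKN1A, which encodes p21, was at 1731, 1749 and 1754 CPM in control and 1498, 1630 and 1610 CPM in DOT1L OE, close to 1.1-fold lower (log2 change -0.14 ± 0.04, adjusted p = 0.000788). This call was lost without TMM scaling, when only library sizes were used (adjusted p = 0.102). CDKN2C and CDKN1B, which encode p18 and p27, rose 5.87-fold and 2.02-fold. CCND1, cyclin D1, fell from 1840, 1910 and 1910 CPM to 588, 567 and 542 CPM (3.33-fold, log2 change -1.74 ± 0.04, adjusted p = 4.43e-27), and CCND2 fell 3.75-fold.

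Among 24 p53 targets, 13 were lower, 8 of them by over 1.5-fold, and 4 were higher (median log2 change -0.16). RRM2B, a p53-dependent ribonucleotide reductase subunit, was at 131, 126 and 117 CPM in control and 40, 40 and 34 CPM in DOT1L OE (3.29-fold lower, log2 change -1.72 ± 0.07, adjusted p = 2e-19). CCNG1 and ZMAT3 were 1.98-fold and 1.91-fold lower, whereas TP53INP1 was 2.69-fold higher at 21.1, 20.4 and 18.3 CPM in control and 55, 53.7 and 52 CPM in DOT1L OE. Without TMM scaling, 7 p53 targets were called higher.

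Histone genes split into 2 groups that moved in opposite directions; they were chosen after their values were seen. Genes of the replication-dependent clusters, whose transcripts mostly lack a poly(A) tail and are thus captured in part after poly(A) enrichment, had a summed level of 480, 487 and 489 CPM in control and 132, 139 and 140 CPM in DOT1L OE. Of 14 tested, 11 were lower, 10 by over 1.5-fold, and 1 was higher, with a median log2 change of -1.85. Of those called lower, H2AC13, H2BC18 and H3C4 passed the filter through control alone, so that the filter favoured their direction. H2AC20 passed through DOT1L OE alone and was not called. The call of H2BC18 was lost under 5 of the alternatives. H2BC12 was at 220, 222 and 218 CPM in control and 49.3, 57.8 and 53.9 CPM in DOT1L OE (4.09-fold lower, log2 change -2.03 ± 0.06, adjusted p = 1.54e-23) and H2AC6 at 97.2, 110 and 105 CPM in control and 26.2, 25 and 22.7 CPM in DOT1L OE (4.23-fold lower). Other histone genes, whose transcripts are polyadenylated at least in part, were higher as a class. Their summed level was 617, 615 and 639 CPM in control and 1470, 1544 and 1626 CPM in DOT1L OE, and 7 of 8 were higher. H2AZ1 rose from 27.2, 23.8 and 26 CPM to 155, 170 and 190 CPM (6.7-fold, log2 change 2.74 ± 0.08, adjusted p = 2.5e-24) and H2AX from 57.5, 77.1 and 68.2 CPM to 231, 238 and 237 CPM (3.48-fold).

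**Figure D3:**
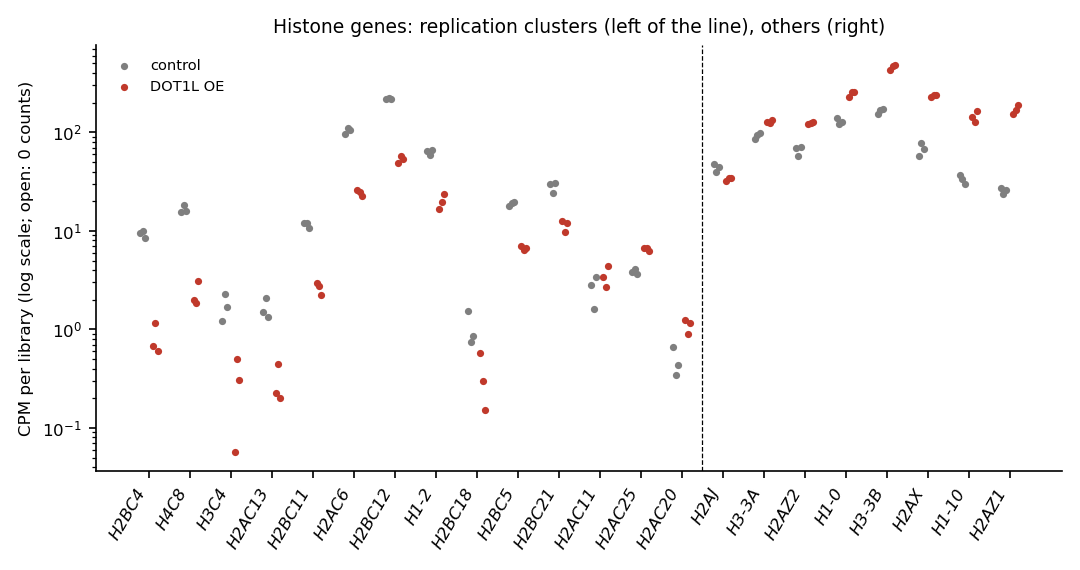
CPM per library (log y axis) of 22 tested histone genes in control and DOT1L OE, with genes of the replication clusters left of the dashed line and other histone genes right of it. Left of the line 11 of 14 genes were lower in DOT1L OE, and right of it 7 of 8 were higher.

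Signalling by bone morphogenetic proteins, secreted ligands of the TGF-β family that induce ID genes through SMAD factors, had targets and inhibitors that were mostly higher and ligands that changed both ways. Of 24 TGF-β and BMP response genes, 18 were higher, 12 by over 1.5-fold, and 6 were lower, with a median log2 change of 0.63. ID3 and ID1, inhibitors of helix-loop-helix factors, were at 34.1, 30.8 and 26.8 CPM in control and 425, 470 and 450 CPM in DOT1L OE (14.7-fold higher, log2 change 3.87 ± 0.07, adjusted p = 9.12e-30) and at 18.1, 18.5 and 24.9 CPM in control and 271, 289 and 304 CPM in DOT1L OE (14-fold higher). ID2 and ID4 were 7.53-fold and 11.3-fold higher, and SMAD6 and SMAD7, feedback inhibitors, 7.06-fold and 6.28-fold. These 4 were added after their values were seen. Among the ligands, BMP2 was at 53, 55.7 and 56.3 CPM in control and 401, 383 and 370 CPM in DOT1L OE (6.99-fold higher, log2 change 2.81 ± 0.05, adjusted p = 1.86e-28). BMP4, another ligand, named after its values were seen, was at 24.5, 26.7 and 24.1 CPM in control and 12.3, 14.8 and 14.4 CPM in DOT1L OE (1.81-fold lower, log2 change -0.86 ± 0.12, adjusted p = 1.93e-07). GREM1, a secreted BMP antagonist, was 3.26-fold higher. The TGF-β receptors TGFBR2 and TGFBR3 fell, TGFBR3 from 12.8, 13.3 and 13.4 CPM to 2.97, 2.75 and 2.12 CPM (5.04-fold, log2 change -2.33 ± 0.19, adjusted p = 3.79e-12).

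In the NOTCH pathway, in which ligands on one cell activate receptors on the next, 8 of 13 genes were higher, all 8 by over 1.5-fold, and the other 5 were not called. HEY1, HEYL and NOTCH4 passed the filter through DOT1L OE alone. DLL4, a ligand best known from blood vessels, was at 10.1, 8.42 and 10.2 CPM in control and 291, 286 and 280 CPM in DOT1L OE (29.7-fold higher, log2 change 4.89 ± 0.07, adjusted p = 2.22e-31). HES1 and HEY1, direct target genes, were at 0.661, 0.865 and 0.808 CPM in control and 12.5, 10.5 and 13.9 CPM in DOT1L OE and at 0.22, 0.462 and 0.323 CPM in control and 7.36, 6.9 and 6.41 CPM in DOT1L OE, with no overlap between the groups in either (15.7-fold and 20.3-fold higher). Of the receptors, named after their values were seen, NOTCH1 and NOTCH4 were called higher, while NOTCH2 and NOTCH3 were not and differed by log2 changes of -0.10 and -0.02, both with overlapping groups.

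KDR, the VEGF receptor of endothelial cells, was at 0.331, 0.346 and 0 CPM in control and 11.5, 13.8 and 12 CPM in DOT1L OE (54.3-fold higher, log2 change 5.76 ± 0.35, adjusted p = 1.55e-15). TIE1 and TEK, receptor kinases of the angiopoietin pathway, were 8.52-fold and 1.93-fold higher. KDR and TIE1 passed the filter through DOT1L OE alone, so that the filter favoured their direction. The summed level of 7 endothelial markers was 77.43 to 83.01 CPM in control and 152.8 to 165.7 CPM in DOT1L OE. CDH5, a defining marker, had 0 counts in all 6 libraries, and CLDN5 and VWF had at most 12 counts in a library. EGFL7 was 1.88-fold lower. Whether other cells had a part in these levels was not tested beyond these markers.

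Growth factors and their binding proteins changed in both directions, with 20 of 43 higher and 14 lower. AREG, a ligand of the EGF receptor, rose from 0.772, 1.1 and 1.56 CPM to 33.7, 44.1 and 39.1 CPM (33.8-fold, log2 change 5.08 ± 0.18, adjusted p = 1.61e-21). EGF itself fell from 12, 9 and 13.8 CPM to 0.742, 0.55 and 0.807 CPM (16.5-fold). IGFBP3, a carrier of insulin-like growth factors, was at 1197, 1207 and 1160 CPM in control and 317, 289 and 302 CPM in DOT1L OE (3.92-fold lower, log2 change -1.97 ± 0.04, adjusted p = 1.82e-27). GAS6, a ligand of the AXL receptor, was 4.81-fold lower at 1583, 1629 and 1579 CPM in control and 340, 326 and 331 CPM in DOT1L OE. Of 27 WNT pathway genes, 12 were higher and 10 lower. The antagonist DKK1 was 5.53-fold higher and the antagonist SFRP1 2.88-fold lower. Among RAS-MAPK output genes 12 of 26 were higher and 7 lower, without a common direction among phosphatases of MAP kinases. DUSP1 was at 146, 158 and 157 CPM in control and 402, 450 and 446 CPM in DOT1L OE (2.82-fold higher, log2 change 1.49 ± 0.05, adjusted p = 5.3e-22) and DUSP10 was 2.75-fold higher, while DUSP6 was at 75.8, 72.3 and 69.1 CPM in control and 20.2, 21.6 and 19.9 CPM in DOT1L OE (3.52-fold lower, log2 change -1.81 ± 0.08, adjusted p = 2.05e-18) and DUSP5 was 2.88-fold lower. PHLDA1, a target of the pathway, was 4.02-fold higher.

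Transcription factors of the lung mesenchyme, which pattern the embryonic lung and stay on in its fibroblasts, were mostly higher: 16 of 24 rose, 12 by over 1.5-fold, and 5 fell (median log2 change 1.04). TBX2 was at 128, 149 and 120 CPM in control and 503, 503 and 515 CPM in DOT1L OE (3.83-fold higher, log2 change 1.94 ± 0.06, adjusted p = 8.74e-24). FOXF1 was at 208, 216 and 192 CPM in control and 584, 576 and 570 CPM in DOT1L OE (2.81-fold higher). PRRX2 was 7.02-fold higher, whereas MEIS2, at 9.42, 7.73 and 8.67 CPM in control and 1.37, 3.2 and 1.72 CPM in DOT1L OE, was 4.07-fold lower. Of 39 HOX genes, 14 were tested, 5 higher and 4 lower. HOXA4 and HOXC6 passed the filter through DOT1L OE alone. HOXA5 and HOXA3 were 9.97-fold and 3.18-fold higher, HOXA5 at 1.93, 1.04 and 1.62 CPM in control and 15.8, 14.1 and 16.2 CPM in DOT1L OE, and HOXB6 was 1.75-fold higher at 19, 16.6 and 14.5 CPM in control and 27.4, 28.5 and 31.8 CPM in DOT1L OE. HOXB3, HOXB4 and HOXB8 were lower (log2 changes -0.54, -0.32 and -0.84). The call of HOXB8 was lost without DOT1L OE replicate 2 (log2 change -0.60, adjusted p = 0.0638).

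**Figure D4:**
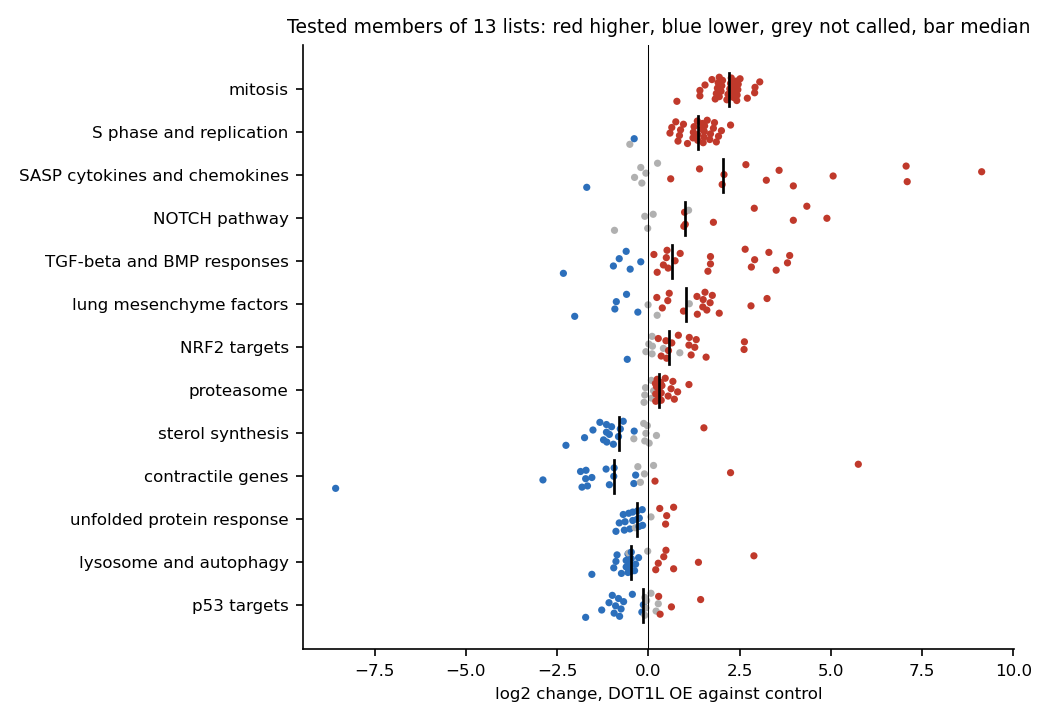
Log2 change in DOT1L OE against control (x axis) of each tested member of 13 gene lists (rows), coloured by call, with a black bar at the median of the list. All 32 mitosis genes lay above 0, 15 of 23 sterol synthesis genes and 14 of 21 contractile genes were called lower, and SASP members ranged from -1.69 for CCL2 to 9.13 for IL24.

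Contractile genes of smooth muscle and activated fibroblasts were mostly lower: 14 of 21 fell, 11 by over 1.5-fold, and 3 rose (median log2 change -0.95). ACTC1 passed the filter through DOT1L OE alone, and MYH11 and TNNT2 through control alone. ACTG2 and ACTA2, smooth muscle actins, were at 1412, 1429 and 1421 CPM in control and 185, 193 and 199 CPM in DOT1L OE (7.4-fold lower, log2 change -2.89 ± 0.04, adjusted p = 1.38e-31) and at 547, 592 and 578 CPM in control and 157, 166 and 164 CPM in DOT1L OE (3.53-fold lower), the second named after its values were seen. TAGLN and CALD1, which bind actin, were 3.64-fold and 3.18-fold lower. TNNT2, a troponin of heart muscle, went from 1.98, 2.37 and 3.29 CPM to 0 counts in all DOT1L OE libraries, at least 48.8-fold lower by the same floor. ACTC1, cardiac actin, rose instead, from 0.331, 0.231 and 0.269 CPM to 15, 15.3 and 15.6 CPM (53.9-fold), as did MYOCD, a coactivator of smooth muscle genes (4.76-fold, log2 change 2.25 ± 0.12, adjusted p = 4.62e-17).

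Extracellular matrix genes changed in composition. Of 36 genes of the fibroblast matrix 19 were lower, 12 by over 1.5-fold, and 14 higher, 8 by over 1.5-fold (median log2 change -0.18). SPARC, a collagen-binding protein and one of the most abundant transcripts, was at 5044, 4951 and 5070 CPM in control and 1777, 1768 and 1811 CPM in DOT1L OE (2.81-fold lower, log2 change -1.49 ± 0.03, adjusted p = 5.07e-28). FN1, fibronectin, and COL11A1, a fibrillar collagen, were 2.35-fold and 10.7-fold lower. ELN, which encodes elastin, was at 6.56, 2.6 and 6.14 CPM in control and 54, 54.6 and 58.4 CPM in DOT1L OE (10.8-fold higher, log2 change 3.44 ± 0.16, adjusted p = 1.4e-18). VCAN, a large proteoglycan, was 3.19-fold higher.

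Proteases that cut this matrix were partly higher. Of 26 proteases and inhibitors, 13 were higher and 9 lower (median log2 change 0.12). MMP1, interstitial collagenase, was at 92.4, 96.7 and 97.2 CPM in control and 562, 547 and 578 CPM in DOT1L OE (5.89-fold higher, log2 change 2.56 ± 0.05, adjusted p = 1.05e-28). MMP3, stromelysin, was at 16.4, 17.1 and 20.1 CPM in control and 164, 166 and 172 CPM in DOT1L OE (9.36-fold higher). ADAMTS12, another protease of the list, fell from 103, 109 and 108 CPM to 27.2, 25.6 and 23.8 CPM (4.19-fold). TIMP3, an inhibitor bound to the matrix, fell from 600, 614 and 618 CPM to 136, 140 and 138 CPM (4.43-fold). Integrins, the receptors for matrix, were lower in 8 of 17 and higher in 4, with ITGB1, the common β chain, 1.77-fold lower (log2 change -0.82 ± 0.04, adjusted p = 2.54e-19).

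AP-1 sites (TGANTCA on either strand) were found in 26.7% of 15 protease promoters and 27.3% of 11 SASP promoters, against 3.98% of promoters of genes tested and 6.6% of all. A C/EBP site (TTGCNNAAT or ATTNNGCAA) was found in 2 of 11 SASP promoters, 18.2%, against 1.24% and 2.45%. Of the 1187 promoters of all genes higher by over 1.5-fold, 4.38% held an AP-1 site and 1.01% a C/EBP site. In the 1001 promoters of genes lower by over 1.5-fold the shares were 4.9% and 2.5%. IL1B with its C/EBP site and IL11 with its AP-1 site are shown, in capitals, taken by the same rule among the 11 SASP promoters matched.
IL1B, chr2:112836780-112837029, minus strand: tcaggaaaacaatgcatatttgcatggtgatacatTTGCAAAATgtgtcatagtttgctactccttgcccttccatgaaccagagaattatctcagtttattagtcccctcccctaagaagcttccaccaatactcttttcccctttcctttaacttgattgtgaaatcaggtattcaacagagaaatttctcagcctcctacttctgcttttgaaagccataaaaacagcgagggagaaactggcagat
IL11, chr19:55370464-55370713, minus strand: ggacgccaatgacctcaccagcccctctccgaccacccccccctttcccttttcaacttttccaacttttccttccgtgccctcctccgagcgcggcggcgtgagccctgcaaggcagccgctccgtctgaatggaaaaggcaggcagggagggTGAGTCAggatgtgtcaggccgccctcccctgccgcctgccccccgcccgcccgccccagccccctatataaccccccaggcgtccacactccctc

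Sterol synthesis genes were lower as a class: 15 of 23 fell, 13 by over 1.5-fold, and 1 rose (median log2 change -0.82). STARD4, a sterol carrier, was at 42.1, 35.9 and 38.8 CPM in control and 6.96, 8 and 9.38 CPM in DOT1L OE (4.78-fold lower, log2 change -2.26 ± 0.12, adjusted p = 1.13e-16), with groups that did not overlap. INSIG1, which holds back the sterol sensor, was the member that rose (2.87-fold, log2 change 1.52 ± 0.11, adjusted p = 8.55e-14). SCD, the desaturase of fatty acid synthesis, was 3.66-fold lower, but the fatty acid list as a whole had 5 of 14 higher and 6 lower.

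Chaperones of the endoplasmic reticulum were lower by small amounts, with 15 of 21 genes of the unfolded protein response lower, 2 of them by over 1.5-fold, and 4 higher (median log2 change -0.31). HSPA5, the chaperone BiP, was at 697, 724 and 743 CPM in control and 388, 391 and 385 CPM in DOT1L OE (1.86-fold lower, log2 change -0.89 ± 0.04, adjusted p = 1.4e-18). A CCAAT box was found in 90% of 20 promoters of this list and in 83.3% of 18 sterol synthesis promoters, shares as high as in the mitosis genes although these classes were mostly lower. STARD4 and HSPA5 are shown with it in capitals.
STARD4, chr5:111512536-111512785, minus strand: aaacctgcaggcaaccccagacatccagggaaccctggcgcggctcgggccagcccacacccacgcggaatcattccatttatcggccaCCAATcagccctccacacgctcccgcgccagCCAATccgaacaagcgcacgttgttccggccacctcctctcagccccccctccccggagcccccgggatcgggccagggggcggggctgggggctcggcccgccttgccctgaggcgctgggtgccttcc
HSPA5, chr9:125241344-125241593, minus strand: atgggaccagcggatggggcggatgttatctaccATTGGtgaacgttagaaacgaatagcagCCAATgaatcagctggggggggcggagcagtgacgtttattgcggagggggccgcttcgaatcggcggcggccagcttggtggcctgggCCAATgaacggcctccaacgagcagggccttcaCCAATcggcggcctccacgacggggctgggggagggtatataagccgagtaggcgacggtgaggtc

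Of 30 genes of amino acid metabolism and the integrated stress response 13 were lower and 7 higher (median log2 change -0.12). PSAT1 and PYCR1, which make serine and proline, were 3.32-fold and 3.35-fold lower, PSAT1 at 36.8, 38.3 and 37.9 CPM in control and 13.2, 10.7 and 10.2 CPM in DOT1L OE. SLC3A2, the chain shared by several amino acid transporters, was at 78.5, 79.6 and 73.7 CPM in control and 369, 425 and 424 CPM in DOT1L OE (5.26-fold higher, log2 change 2.39 ± 0.06, adjusted p = 5.12e-26), and its partner SLC7A5 was 2.26-fold higher.

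Targets of NRF2, the factor of the oxidative stress response, were higher in 15 of 23, 9 by over 1.5-fold, and lower in 1 (median log2 change 0.55). HMOX1, heme oxygenase, was at 8.76, 9.17 and 7.33 CPM in control and 49.7, 52 and 53.7 CPM in DOT1L OE (6.16-fold higher, log2 change 2.62 ± 0.11, adjusted p = 1.26e-19), and NQO1 and TXNRD1, which reduce quinones and thioredoxin, were 2.99-fold and 2.48-fold higher. FTL, the ferritin light chain, was the member that fell (1.49-fold). Proteasome subunits were higher in 18 of 24, 2 of them by over 1.5-fold, and the other 6 were not called (median log2 change 0.28), with PSMA7 at 153, 160 and 165 CPM in control and 241, 286 and 307 CPM in DOT1L OE (1.75-fold higher).

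Lysosome and autophagy genes were lower in 18 of 27 and higher in 7 (median log2 change -0.48). The Niemann-Pick pair moved in opposite directions. NPC1, which exports cholesterol from the lysosome, was at 33.3, 37.6 and 44 CPM in control and 286, 294 and 270 CPM in DOT1L OE (7.39-fold higher, log2 change 2.89 ± 0.07, adjusted p = 6.8e-26). NPC2, its soluble partner, was at 263, 256 and 262 CPM in control and 81.5, 96.6 and 89 CPM in DOT1L OE (2.92-fold lower, log2 change -1.55 ± 0.06, adjusted p = 4.59e-21). SQSTM1, an autophagy receptor, was 2.58-fold higher, and CTSZ, a cathepsin, 1.94-fold lower.

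Other housekeeping classes moved little. Of 50 cytosolic ribosomal protein genes 8 were higher and 16 lower, and without TMM scaling the balance turned to 18 higher and 9 lower. Of 31 nuclear genes of oxidative phosphorylation 9 were higher and 15 lower, and of 13 mitochondrially encoded genes 6 were lower and 7 were not called. Of 33 glycolysis and hypoxia genes 14 were higher and 12 lower (median log2 change 0.02).

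**Figure D5:**
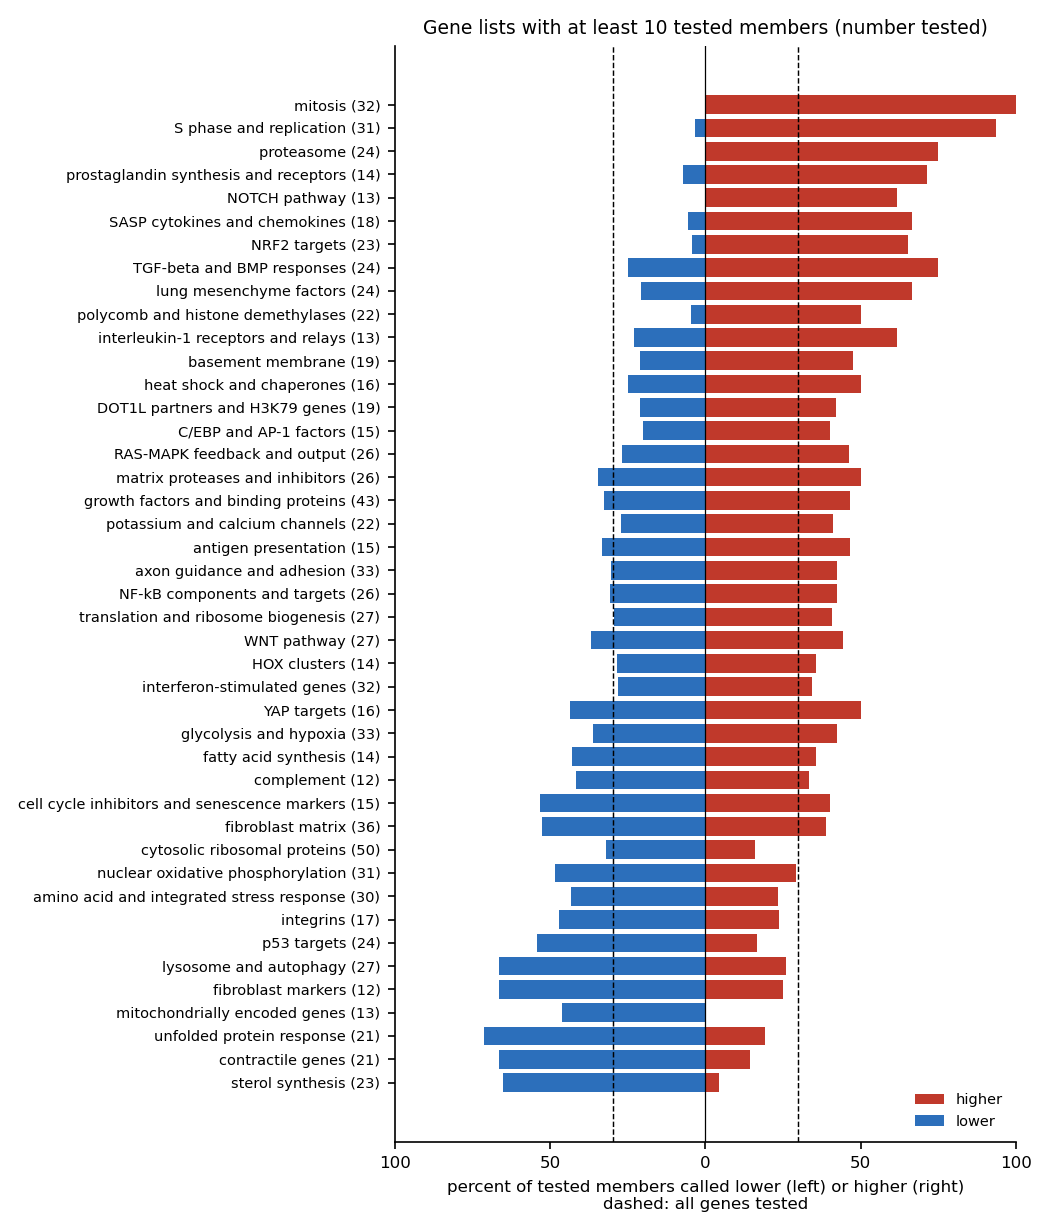
Percent of tested members called higher (right, red) or lower (left, blue) for each gene list with at least 10 tested members, in order of the difference, with dashed lines at the 29.9% of all genes tested called in each direction. Mitosis had 100% higher, and the lower end was held by sterol synthesis, contractile genes and the unfolded protein response.

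DOT1L partners and genes tied to H3K79 methylation stood near the background, with 8 of 19 higher and 4 lower (median log2 change 0.04). KDM4D passed the filter through DOT1L OE alone, so that the filter favoured its direction. KDM2B, a proposed demethylase of H3K79, was at 21.5, 22.4 and 21.7 CPM in control and 46.3, 36.3 and 36 CPM in DOT1L OE (1.81-fold higher, log2 change 0.85 ± 0.11, adjusted p = 2.31e-08). KDM4D, another proposed one, was at 0.661, 0.288 and 0.215 CPM in control and 1.43, 1.65 and 1.26 CPM in DOT1L OE, below 2 CPM in every library (log2 change 1.88 ± 0.57, adjusted p = 0.00508), and was not called in 1 fit over all 12 libraries (adjusted p = 0.0707). SIRT1, a deacetylase that can act at DOT1L targets, was 2.54-fold higher at 10.1, 12.5 and 11.1 CPM in control and 33.3, 28.2 and 24.3 CPM in DOT1L OE, and AFF1, a partner in elongation complexes, was 2.11-fold lower. Of 22 polycomb and histone demethylase genes 11 were higher and 1 lower, with EZH2, the H3K27 methyltransferase, at 7.11, 5.13 and 7.43 CPM in control and 28.6, 25.9 and 23.7 CPM in DOT1L OE (3.96-fold higher, log2 change 1.98 ± 0.14, adjusted p = 1.37e-13).

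Several receptors, channels and secreted factors were among the largest changes. IL21R, a cytokine receptor of lymphocytes, was at 0.11, 0 and 0.377 CPM in control and 15.6, 17.1 and 19.2 CPM in DOT1L OE (100-fold higher, log2 change 6.64 ± 0.33, adjusted p = 9.2e-18). GAL, the neuropeptide galanin, was 56.7-fold higher at 0.0551, 0.404 and 0 CPM in control and 8.84, 7.85 and 9.69 CPM in DOT1L OE. CEMIP, which degrades hyaluronan, was at 49.3, 50.8 and 51.2 CPM in control and 395, 406 and 375 CPM in DOT1L OE (7.77-fold higher), and TM4SF1, a membrane protein of 4 spans, at 120, 107 and 115 CPM in control and 590, 625 and 658 CPM in DOT1L OE (5.47-fold higher). CPA4, a carboxypeptidase, was the gene of more than 100 CPM that fell furthest, at 337, 344 and 338 CPM in control and 18.2, 17.8 and 14.2 CPM in DOT1L OE (20.4-fold lower, log2 change -4.35 ± 0.07, adjusted p = 2.1e-30). MEST, an imprinted gene of the mesoderm, was at 261, 243 and 240 CPM in control and 17.4, 17.8 and 21.1 CPM in DOT1L OE (13.2-fold lower, log2 change -3.72 ± 0.07, adjusted p = 1.39e-28). KCNN2, a calcium-gated potassium channel, was at 12.1, 10.1 and 14.1 CPM in control and 0.399, 0.3 and 0.151 CPM in DOT1L OE (42.3-fold lower). IL21R and GAL passed the filter through DOT1L OE alone and KCNN2 through control alone, so that the filter favoured their direction. Their lower levels rest on few counts: 2, 0 and 7 for IL21R and 1, 7 and 0 for GAL in control. For KCNN2 they were 7, 6 and 3 in DOT1L OE.

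A further 15 genes, CSF3 and TNNT2 among them, had 0 counts in all libraries of one group and at least 10 in each library of the other. PDPN, a glycoprotein of lymphatic vessels and activated fibroblasts, was at 1.65, 2.75 and 2.02 CPM in DOT1L OE and 0 in control, at least 39-fold higher. LIPH, a phospholipase, was at 2.59, 4.56 and 3.39 CPM in control and 0 in DOT1L OE, at least 66.8-fold lower. All 15 had a mean below 4 CPM in the group that expressed them. Such genes can pass the filter only through that group, so that it favours their direction.

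By gene type, 31.9% of 12180 protein-coding genes were higher and 31.1% lower, whereas of 754 long noncoding RNAs 13.1% were higher and 22.1% lower. GC content moved with the direction of change. Among the 1333 genes of the lowest decile by GC content (27.8% to 39.5%), 19% were higher and 41.3% lower, and among the 1332 of the highest decile (61.6% to 76%), 36.5% were higher and 25.1% lower, with median log2 changes of -0.20 and 0.12. After an offset for GC content, 7579 of the 8180 calls remained in the same direction, and the medians of mitosis, S phase, sterol synthesis and contractile genes moved by 0.1 or less. The part of GC content in single changes was not tested.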

How the data were processed

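Poly(A) RNA of 12 libraries was sequenced by the authors, who deposited 1 table of raw counts per gene and library (Ensembl IDs, build GRCh38). The processing notes name STAR 2.6.1, and DESeq2 as release 2; the study's methods give other releases. The strand setting of the counting is not given in the sources used here, so that overlapping and antisense genes cannot be told apart. Of 48162 IDs, 93.5% were found in the name table. Groups were taken from the labels. Counts of the 6 control and DOT1L OE libraries were filtered by expression, scaled by TMM and tested with the quasi-likelihood test of edgeR 4.0.16 (R 4.3.3), with glmTreat for changes of over 1.5-fold and an adjusted p threshold of 0.05. The 3 RAS libraries were compared with DOT1L OE in the same way. The procedure was checked on simulated data. The study's own fits were not used.

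Named genes are those the study asked about, the 12 rises and 12 falls of greatest size (mean of at least 5 CPM in the higher group), the 12 with the smallest p in each direction (at least 50 CPM), up to 3 members per list and direction by smallest p, and genes at 0 counts in one group with at least 10 in each library of the other; others were chosen after their values were seen, as was each list member named only by its call. Some genes are not reported here. Members and lists were chosen with earlier results of these data known. Gene coordinates are those of GENCODE v44, and promoters are those of RefSeq (GRCh38.p14), of which 10384 matched a gene tested; 5191 genes had more than 1 start and the first listed was used. Alternatives were limma-voom (limma 3.58.1), DESeq2 1.42.0, other scalings and filters, an offset for GC content, a replicate block and leaving out each library.

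Replicates within a group differed by more than counting error (chi-square per degree of freedom 4.33 to 6.39), more than sequencing 1 library again would give, which does not show that they came from separate cultures, and the biological coefficient of variation was 0.0787.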

Additional observations from a re-analysis of the deposited data

How the results depend on the processing

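Over the alternatives run, no named gene called in either fit changed direction, and of the counts and medians 62 moved against 2281 that did not. The number of genes called changed was 8180 and ranged from 7463 to 8268 with another fit, filter, scaling or an offset for GC content, or without 1 library. With DESeq2, 2087 genes changed by over 1.5-fold, against 2838. Without TMM scaling, the median log2 change of all genes was 0.085 and 57.2% of calls were higher, and the balance of ribosomal protein genes turned, with 18 higher and 9 lower against 8 and 16. The median of SASP genes ran from 1.81 to 2.24 without 1 library and was 1.41 with genes of at least 1 CPM in 3 libraries. Of 331 named genes and histones, 14 changed their call under at least 1 alternative: HRAS, IL1A, KDM4D, CDKN1A, FOSL1, TREX1, C1S, CCNE1, UBE2B, HOXB8, MRTFA, TUBB3, SBSN and H2BC18. The cause was not tested.

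With the replicate block, 4026 genes were higher and 4004 lower, and 7997 calls were shared with the fit without it. Deviations from the group means of same-numbered libraries did not correlate (r of -0.01, -0.014 and 0.009). No shared deviation by number was thus seen, which does not show whether same-numbered libraries were prepared together. With 3 libraries a group, low genes such as IL1A are known only roughly.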

Other observations

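Other gene lists showed smaller or mixed changes. Targets of YAP, the mechanosensitive coactivator, were higher in 8 of 16 and lower in 7 (median log2 change 0.15), and basement membrane genes were higher in 9 of 19 and lower in 4. Of 5 genes of metallothioneins and zinc handling 4 were higher, the metallothioneins MT2A and MT1E and the zinc transporters SLC30A1 and SLC39A10. Heat shock genes were higher in 8 of 16 and lower in 4, and translation and ribosome biogenesis genes in 11 of 27 with 8 lower. Axon guidance and adhesion genes were higher in 14 of 33 and lower in 10, and potassium and calcium channels in 9 of 22 with 6 lower, of which 7 of 22 passed the filter through 1 group alone. Antigen presentation genes were higher in 7 of 15 and lower in 5, complement genes in 4 of 12 with 5 lower, and adipocyte genes in 4 of 6 with 2 lower. Of the markers of other cell types, 2 of 8 epithelial ones were higher and 3 lower, and 2 of 5 muscle and pericyte ones were higher and 1 lower. Among neural markers 2 of 3 were higher, among keratinocyte markers 1 of 3 was higher and 1 lower, and among leukocyte markers 1 of 2 was lower.

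Some gene families were chosen after their values were seen. RAB GTPases, which direct vesicle traffic, were lower in 30 of 60 (50%) and higher in 11 (18.3%, median log2 change -0.19), with a summed level of 4537, 4446 and 4548 CPM in control and 3723, 3654 and 3695 CPM in DOT1L OE. Zinc finger genes of the ZNF series were higher in 93 of 473 (19.7%) and lower in 65 (13.7%), and long intergenic RNAs of the LINC series were higher in 21 of 107 (19.6%) and lower in 26 (24.3%). All 4 ZNF and LINC shares lay below the 29.9% of all genes tested called in each direction. Shares called also differed by level, which was not taken into account here.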
